A study of Mus musculus with 62 samples.

Results

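The genes described here are the mouse DYRK kinases (dual-specificity tyrosine-phosphorylation-regulated kinases) Dyrk1a, Dyrk1b, Dyrk2, Dyrk3 and Dyrk4, together with Dcaf7, a WD40-repeat adaptor that binds DYRK1A and DYRK1B. These 6 genes of the 27179 in the count tables were chosen by symbol, with earlier results of these data known: Dyrk1a because it is triplicated in Ts65Dn mice, and Dyrk1b and Dcaf7 because their counts were lower in some Ts65Dn groups. For Dyrk1b and Dcaf7 the Ts65Dn vs. euploid values are therefore given as a description, with no test.

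DYRK kinases phosphorylate their own activation loop on tyrosine while they are being folded and afterwards phosphorylate other proteins on serine and threonine. DYRK1A and DYRK1B are close paralogs of the nucleus and cytoplasm that act on splicing factors, NFAT factors, the DREAM subunit LIN52 and cyclin D1, and DCAF7 brings substrates to both. DYRK2, DYRK3 and DYRK4 form the other class of the family. DYRK1A is one of the most studied products of human chromosome 21, since loss of one copy in humans causes microcephaly and the extra copy has been linked to the cognitive phenotypes of Down syndrome.

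Polyadenylated RNA was sequenced in 62 libraries from mice of the DBA/2J x B6EiC3Sn/J background. Forebrain was taken at E17.5, late in gestation, from 8 euploid and 7 Ts65Dn embryos, whose sex the labels do not give. Hippocampus was taken at 6 weeks from 8 euploid, 7 Ts65Dn and 8 Ts65Dn;Brwd1+/- males and from 8 females of each of these genotypes. Ts65Dn mice carry an additional copy of distal chromosome 16 and, with it, of the proximal end of chromosome 17, and Ts65Dn;Brwd1+/- mice carry the same extra segments with one Brwd1 copy replaced by the repro5 mutant allele in every cell. Dyrk1a therefore stays at 3 copies in both genotypes. Since each library was taken as a separate animal from its title, p-values measure the spread between these samples.

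Libraries held 14.9 to 137.1 M counts, with a median of 46.3 M, and 34 of the 38 libraries labelled as trisomic showed the extra dosage. In those 34, the median triplicated gene, with Dyrk1a left out, lay 0.51 to 0.63 above the euploid mean on the log2 scale, which is 1.43 to 1.55-fold. In the other 4, which are male Ts65Dn B145, male Ts65Dn;Brwd1+/- B138 and T35 and female Ts65Dn;Brwd1+/- B136, it lay at 0.00 to 0.04. They are called here the 4 libraries at euploid dosage, and several results that rest on them are given with and without them. In addition, the library labelled male Ts65Dn B88 held Xist at 477 CPM, counts per M counts of the library, and the library labelled female euploid B85 held Xist at 0.727 CPM and the Y-linked Ddx3y at 48.8 CPM. Brwd1, the gene lowered by design, was 0.25 lower (log2) in Ts65Dn;Brwd1+/- than in Ts65Dn of both sexes, a difference that edgeR did not call in males (adjusted p = 0.626) or in females (adjusted p = 0.9999). Without the 4 libraries at euploid dosage the Brwd1 difference was -0.19 in males and -0.19 in females, again not called. By qPCR, a different measure, the study reported the Brwd1 increase as rescued in males, shown for E17.5 forebrain. In females it reported Brwd1 as significantly lower than in Ts65Dn. Neuronal and hippocampal principal neuron markers were present in every adult library. Telencephalon markers summed to 589 to 1424 CPM in euploid embryos (median 883) and to 247 to 985 CPM in Ts65Dn embryos (median 551). The Hox genes of hindbrain and spinal cord, which the forebrain should lack, reached 80.1 CPM in euploid and 216 CPM in Ts65Dn embryos, with medians of 5.45 and 26.6 CPM. The part of these marker differences in the E17.5 results was not tested.

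Dyrk1a (Entrez 13548) lies on chromosome 16 at 94569947 to 94695519 of mm10, inside the triplicated segment, and the 5 other genes lie outside it. Dyrk1b (13549) lies on chromosome 7 at 28179447 to 28197910, Dyrk2 (69181) on chromosome 10 at 118855602 to 118889245, Dyrk3 (226419) on chromosome 1 at 131128441 to 131138234, Dyrk4 (101320) on chromosome 6 at 126876020 to 126922083 and Dcaf7 (71833) on chromosome 11 at 106036872 to 106059324. The coding sequence of the activation loop is given here to place the 5 kinases in their classes, 5' to 3' in GENCODE M21 transcripts, with the codons of the Tyr-X-Tyr motif in capitals. The second tyrosine of this motif is the one that the kinases phosphorylate on themselves.
Dyrk1a: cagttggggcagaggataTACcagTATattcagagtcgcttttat
Dyrk1b: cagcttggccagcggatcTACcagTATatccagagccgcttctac
Dyrk2: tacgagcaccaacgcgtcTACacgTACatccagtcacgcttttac
Dyrk3: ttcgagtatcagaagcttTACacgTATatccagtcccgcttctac
Dyrk4: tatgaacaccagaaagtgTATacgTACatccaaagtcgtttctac
The Dyrk1a bases lie at chr16:94671575-94673366 (plus strand, exons 7 and 8), those of Dyrk1b at chr7:28184513-28185097 (plus, exons 6 and 7), of Dyrk2 at chr10:118860194-118860238 (minus, exon 3), of Dyrk3 at chr1:131129313-131129357 (minus, exon 3) and of Dyrk4 at chr6:126885373-126886667 (minus, exons 10 and 11). Dyrk1b shared 36 of these 45 bases with Dyrk1a, against 25 for Dyrk2, 26 for Dyrk3 and 24 for Dyrk4, and the codon between the tyrosines encoded Q in Dyrk1a and Dyrk1b and T in the 3 others. Over whole exons, the longest run of identical bases was 17 between Dyrk1a and Dyrk1b and 29 between Dyrk2 and Dyrk3. Dcaf7 shares exon bases with the antisense gene Gm11646, and Dyrk2 with 4932442E05Rik. The library kit keeps no strand, so reads in those bases cannot be assigned to one gene.

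Dyrk1b and Dcaf7 are the members that were lower in trisomic groups without being triplicated, so the 150 bases upstream of their RefSeq starts (GRCm38.p6, plus strand) are shown as well. Capitals mark CCAAT and GGGCGG on either strand and the palindrome CACGTG.
Dyrk1b: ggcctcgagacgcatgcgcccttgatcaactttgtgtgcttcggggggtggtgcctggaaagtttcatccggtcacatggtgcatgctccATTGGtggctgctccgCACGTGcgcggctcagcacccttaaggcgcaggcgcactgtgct
Dcaf7: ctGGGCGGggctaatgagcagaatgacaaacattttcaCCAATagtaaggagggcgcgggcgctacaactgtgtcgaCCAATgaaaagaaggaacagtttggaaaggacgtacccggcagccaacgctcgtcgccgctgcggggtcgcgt
The first window is chr7:28179297-28179446, which ends at the base before the Dyrk1b start, and the second is chr11:106036722-106036871. The Dyrk1b window held 1 CCAAT box and 1 CACGTG, and the Dcaf7 window 2 CCAAT boxes and 1 GGGCGG. Of 32817 such windows of the genome, 24.5% held at least 1 CCAAT, 4.30% CACGTG and 28.6% GGGCGG, so as a single match only CACGTG was uncommon. The share of windows with 2 CCAAT boxes was not counted. These are matches of letters and not known binding sites.

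The 6 genes covered a wide range of levels, and Dcaf7 was the highest in every group. Levels between genes are given as RPKM, the reads per kilobase of annotated exon and per M counts. In euploid E17.5 forebrain the mean level was 74.6 ± 9.63 RPKM for Dcaf7, 13.9 ± 2.01 for Dyrk1b, 13.3 ± 0.811 for Dyrk1a, 9.73 ± 2.23 for Dyrk2, 5.96 ± 0.924 for Dyrk3 and 0.0481 ± 0.0432 for Dyrk4 (SD, n = 8). Neighbours in this order overlapped from Dyrk1b down to Dyrk3, while Dcaf7 stood above and Dyrk4 below all others.

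**Figure D1:**
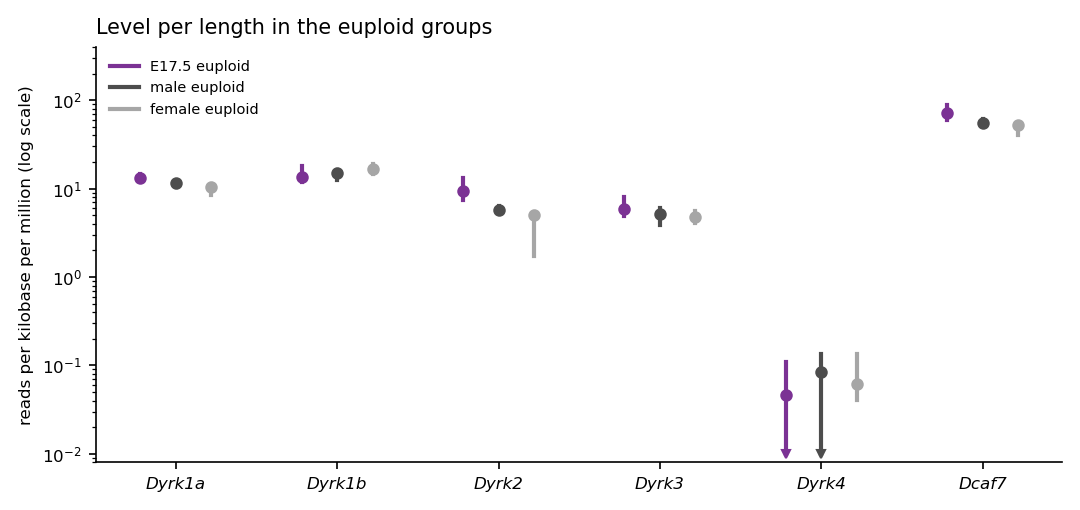
Levels of the 6 genes in RPKM (log axis) in the euploid embryos, males and females, with dots for the median, lines for the range over libraries and arrows where a library held no count. Dcaf7 lies highest and Dyrk4 lowest in each of these groups, and Dyrk1a lies below Dyrk1b in the adults.

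In euploid adults Dyrk1b lay above Dyrk1a with no overlap. Dyrk1b was at 12.4, 15.1 and 16.4 RPKM (lowest, median and highest) in euploid males and at 14.7, 16.9 and 18.8 in euploid females. Dyrk1a was at 10.5, 11.4 and 11.5 in the males and at 8.47, 10.5 and 11.4 in the females. The order of this pair depends on the length used, since the annotated exons of Dyrk1a extend far beyond its coding sequence. By the longest transcript, the mean in euploid males was 15.98 RPKM for Dyrk1a and 15.7 for Dyrk1b, and per coding length 40.2 and 19.2. Dyrk2 and Dyrk3 overlapped each other in both sexes.

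Euploid forebrain at E17.5 and euploid adult hippocampus differ in tissue and age at once, so their levels stand side by side with no test. The median level of Dyrk2 was 1.73 times as high in the embryos, at 9.38 against 5.43 RPKM, and the ranges of 7.40 to 13.2 and 1.72 to 6.42 did not overlap. The Dyrk1a median was 1.22 times as high, at 13.2 against 10.8, again with no overlap between the ranges. Dcaf7 (1.33), Dyrk3 (1.15), Dyrk1b (0.851) and Dyrk4 (0.708) overlapped between the 2 ages, the value in parentheses being the embryo median over the adult median.

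Dyrk1a, the triplicated kinase, was higher in every library that showed the extra dosage than in every euploid library of its group, at E17.5 and in adults of both sexes. At E17.5 the CPM was 100.4, 109 and 121 (lowest, median and highest) in euploid and 148, 154 and 172 in Ts65Dn forebrain. The log2 fold change was 0.52 (SE 0.05, 95% confidence interval 0.41 to 0.62), or 1.43-fold (edgeR quasi-likelihood test, adjusted p = 1.21e-05). Dyrk1a was the 1 member called of 5 tested, where the share over all genes was 1.35%. It was chosen as a triplicated gene, so nothing is read from that count.

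In males, Dyrk1a was at 86.8, 94.3 and 95.1 CPM in euploid, at 93.1, 129 and 139.003 in Ts65Dn and at 85.1, 123 and 135.1 in Ts65Dn;Brwd1+/- hippocampus. The lowest Ts65Dn value was that of B145, and the lowest Ts65Dn;Brwd1+/- values were those of T35 and B138. Ts65Dn males were higher than euploid males by 0.44 (SE 0.09, adjusted p = 0.0255), and by 0.50 without the 4 libraries at euploid dosage. With Dcaf7, which was chosen on this contrast, 2 of the 5 members tested were called against 0.795% of all genes, and nothing is read from that count.

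In Ts65Dn;Brwd1+/- males Dyrk1a was above euploid by 0.34 (SE 0.09), which missed the threshold in edgeR (adjusted p = 0.126) and passed it in DESeq2 (adjusted p = 0.0291), with 1 to 3 RUVr factors, estimates of unwanted variation, removed (DESeq2, adjusted p = 0.0133, 0.00300 and 0.000187) and in the edgeR fit of all 6 adult groups (adjusted p = 0.0703). Without the libraries at euploid dosage the difference was 0.46 and was called (adjusted p = 8.90e-08), and leaving out any 1 of B145, B138 and T35 was enough for a call, with adjusted p-values of 0.0530, 0.0175 and 0.0188. Each of the other 6 Ts65Dn;Brwd1+/- males lay above the highest euploid male.

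In females, Dyrk1a was at 69.9, 86.2 and 93.8 CPM in euploid, at 117, 129 and 137.6 in Ts65Dn and at 80.7, 125.05 and 133.9 in Ts65Dn;Brwd1+/- hippocampus. All 8 Ts65Dn libraries lay above the highest euploid library, as did 7 of the 8 Ts65Dn;Brwd1+/- libraries, the exception being B136. The log2 fold change vs. euploid was 0.59 (SE 0.08, adjusted p = 0.000125) in Ts65Dn and 0.48 (SE 0.08, adjusted p = 0.00253) in Ts65Dn;Brwd1+/- females. These comparisons share the euploid libraries. With Dyrk1b, 2 of the 6 members tested were called in Ts65Dn females against 3.17% of all genes. Dyrk1a is triplicated and Dyrk1b was chosen on the contrast, so nothing is read from that count.

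**Figure D2:**
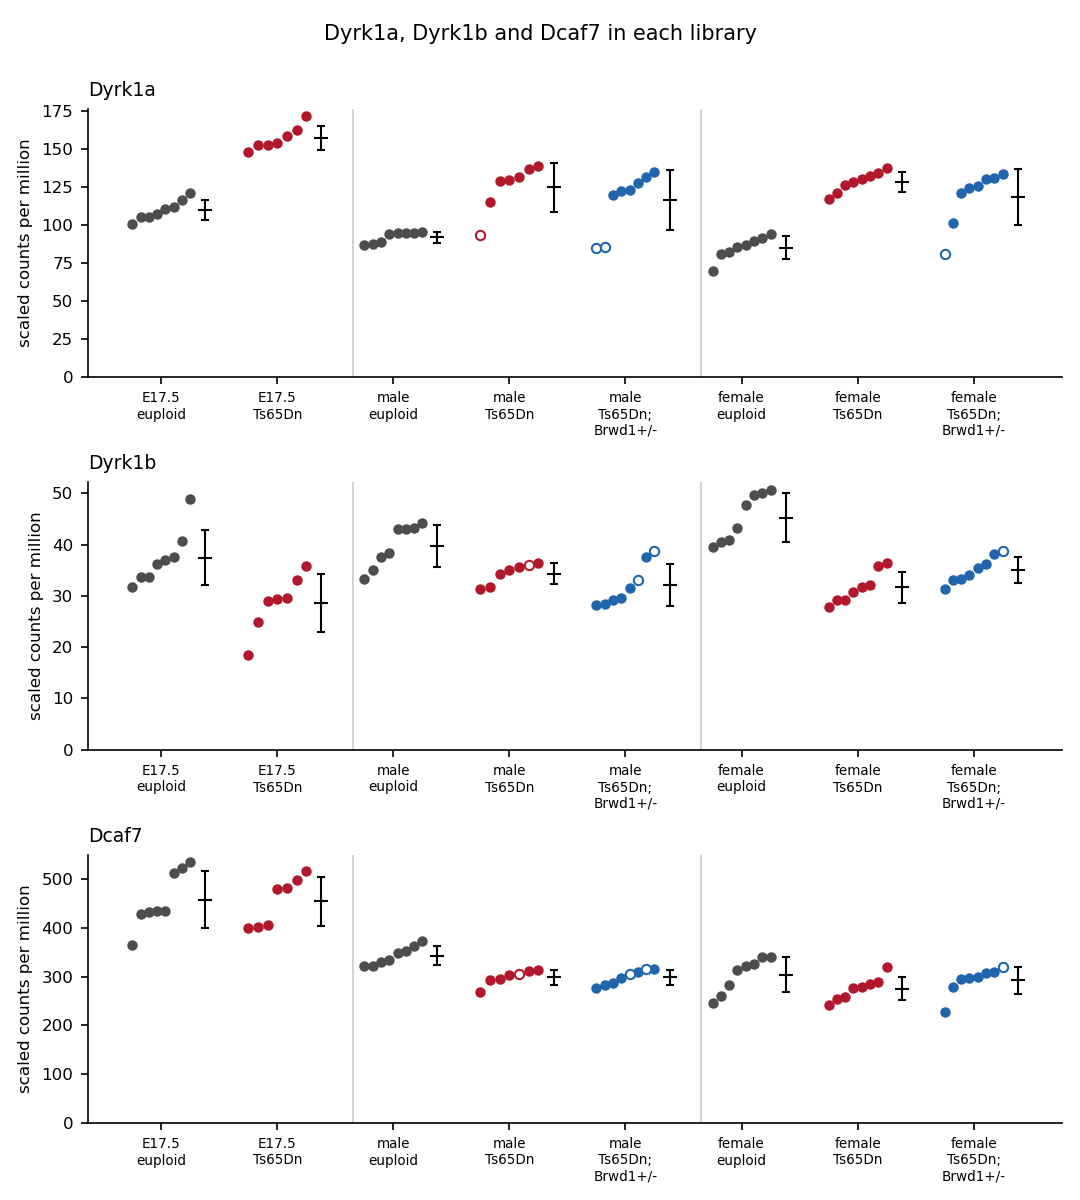
CPM of Dyrk1a, Dyrk1b and Dcaf7 in each library of the 8 groups, with the mean and SD as a black dash and bar and open circles for the 4 libraries at euploid dosage. The filled Dyrk1a dots of each trisomic group lie above all euploid dots of the same sex and age, the Dyrk1b dots of trisomic females lie below those of euploid females, and the Dcaf7 dots of trisomic males lie below those of euploid males.

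The loss of one Brwd1 copy moved no member past the threshold. Dyrk1a differed between Ts65Dn;Brwd1+/- and Ts65Dn by -0.10 in males (95% interval -0.29 to 0.09) and by -0.11 in females (-0.28 to 0.06). In these comparisons 0% of genes were called by edgeR in either sex, and 0 members were called. At an unadjusted p under 0.05 there were 1261 of 16851 genes tested in males and 604 of 17146 in females. The difference in Dyrk1a between genotypes was 0.15 larger in females than in males for Ts65Dn vs. euploid (interval -0.10 to 0.41). The males include B145, which is at euploid dosage, and over the alternative fits the contrast ran from 0.09 to 0.18. In it 0% of genes and 0 members were called, with 1935 of 17427 genes at an unadjusted p under 0.05.

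Dyrk1a was neither among the most nor among the least raised of the triplicated genes. Of the other triplicated genes tested, 65.2% had a higher log2 fold change than Dyrk1a at E17.5, 74.2% in Ts65Dn males, 75.0% in Ts65Dn;Brwd1+/- males, 33.8% in Ts65Dn females and 50.4% in Ts65Dn;Brwd1+/- females. To set aside differences in dosage between libraries, the median change of the other triplicated genes was subtracted in each library. The remaining difference from euploid was -0.06 at E17.5, -0.05 in Ts65Dn males, -0.11 in Ts65Dn;Brwd1+/- males, 0.05 in Ts65Dn females and -0.02 in Ts65Dn;Brwd1+/- females. The value in Ts65Dn;Brwd1+/- males had the smallest p of the 7 comparisons made (2-sided exact permutation test, p = 0.0126, adjusted p = 0.0881), where 0.000155 was the smallest p possible. Without the libraries at euploid dosage it was -0.10 (exact permutation test, adjusted p = 0.275).

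**Figure D3:**
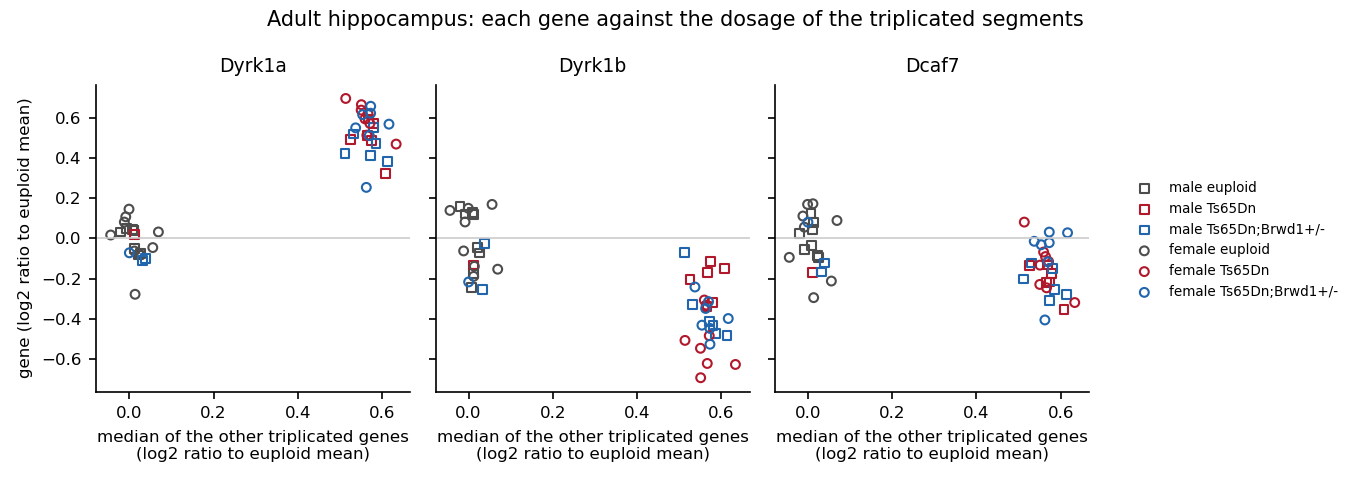
Log2 ratio to the euploid mean of Dyrk1a, Dyrk1b and Dcaf7 in each adult library against the dosage of that library, which is the median over the triplicated genes other than Dyrk1a (squares male, circles female). The 4 libraries at euploid dosage lie with the euploid libraries in Dyrk1a and in the dosage of the segments.

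Genes whose levels ran most like those of Dyrk1a over the 47 adult libraries were all triplicated. Pearson's r was 0.967 for Scaf8, 0.967 for Dscam and 0.944 for Synj1, with Spearman's rho of 0.865, 0.922 and 0.900. Since the libraries form a set of 27 with raised dosage and a set of 20 at the euploid level, r was also taken within each set. It was 0.728 and 0.770 for Scaf8, 0.821 and 0.844 for Dscam and 0.892 and 0.701 for Synj1, in the raised and the euploid-level set. These are descriptions across libraries that share depth and tissue composition.

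Dyrk1b, the paralog that also binds DCAF7 and is known from cell cycle exit and muscle differentiation, was lower in trisomic groups. In bulk tissue, fewer cells of a type and less RNA per cell cannot be told apart. In females, Dyrk1b was at 39.5, 45.4 and 50.7 CPM in euploid, at 27.8, 31.2 and 36.4 in Ts65Dn and at 31.2, 34.8 and 38.8 in Ts65Dn;Brwd1+/- hippocampus. All 8 libraries of each trisomic group lay below the lowest euploid library.

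The Ts65Dn females were lower than euploid by 0.52 on the log2 scale (SE 0.07), on which the gene was chosen. In Ts65Dn;Brwd1+/- females Dyrk1b fell by 0.37 (SE 0.07, interval -0.51 to -0.23), or to 0.773 of euploid (edgeR, adjusted p = 0.00537). Dyrk1a and Dyrk1b were the 2 members called of 6 tested in that comparison, where the share over all genes was 0.729%. Dyrk1a is triplicated and Dyrk1b was chosen against these euploid females, so nothing is read from that count. The euploid libraries are the same that entered the choice, so this test is not independent of it. Whether the Ts65Dn;Brwd1+/- libraries entered the choice too is not known.

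In males, Dyrk1b was at 33.4, 40.6 and 44.2 CPM in euploid, at 31.2, 35.1 and 36.5 in Ts65Dn and at 28.3, 30.5 and 38.8 in Ts65Dn;Brwd1+/- hippocampus. The groups overlapped: 2 of 7 Ts65Dn and 6 of 8 Ts65Dn;Brwd1+/- libraries lay below the lowest euploid library, although every one lay below the euploid median. Ts65Dn males were lower than euploid by 0.21 (SE 0.07), a description. Ts65Dn;Brwd1+/- males were lower by 0.31 (SE 0.07, edgeR, adjusted p = 0.0581). With Dcaf7, 2 members were called of 5 tested, against 0.576% of all genes. Both genes were chosen for lower values in Ts65Dn than in euploid mice, these same euploid males included, so nothing is read from that count. The p-value is not independent of the choice, and whether the Ts65Dn;Brwd1+/- libraries entered it too is not known.

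The Dyrk1b call in Ts65Dn;Brwd1+/- males rested on single libraries. It was lost when any 1 of 9 libraries was left out (euploid B79, B80, B100 or B122, or Ts65Dn;Brwd1+/- B26, B51, B69, B94 or B137), with adjusted p-values of 0.108 to 0.136 and log2 fold changes that stayed between -0.31 and -0.28. Without the 4 libraries at euploid dosage the difference was -0.37 (adjusted p = 0.00892).

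The libraries at euploid dosage held Dyrk1b at 36.1 CPM (B145), 38.8 (B138), 33.1 (T35) and 38.8 (B136). Of these, B138 and B136 were the highest of their groups, and B136 still lay below every euploid female. The difference in Dyrk1b between Ts65Dn and euploid was 0.31 lower in females than in males (SE 0.10), and this too belongs to the contrasts on which the gene was chosen.

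At E17.5, Dyrk1b was at 31.8, 36.6 and 48.9 CPM in euploid and at 18.4, 29.3 and 35.7 in Ts65Dn forebrain, where 5 of 7 Ts65Dn embryos lay below the lowest euploid embryo. The difference was -0.39 (SE 0.12). The lowest embryo, Ts65Dn 6, also held the most hindbrain and spinal cord RNA, with the Hox genes summing to 216 CPM against 3.02 to 181.03 in the other Ts65Dn and 0.467 to 80.1 in the euploid embryos, and the least choroid plexus RNA of its group. The medians of the telencephalon and Hox markers also differed between the euploid and Ts65Dn embryos, as given above. The part of these markers in the result was not tested. Without embryo Ts65Dn 6 the difference was -0.30.

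The embryo titles carry a second number with 2 values, whose meaning the labels do not give. Dyrk1b was lower in Ts65Dn by 0.32 among embryos with the smaller number (4 vs. 4) and by 0.48 among those with the larger (3 vs. 4). The Dyrk1a difference was 0.45 and 0.59 in the same sets, so both genes kept their direction in each.

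Between Ts65Dn;Brwd1+/- and Ts65Dn, Dyrk1b differed by 0.15 in females (interval 0.01 to 0.29, adjusted p = 0.9999) and by -0.10 in males (-0.25 to 0.05, adjusted p = 0.793). All 8 Ts65Dn;Brwd1+/- females lay above the Ts65Dn median, though only 2 lay above the highest Ts65Dn female. The contrast of these differences between the sexes was 0.25 (interval 0.04 to 0.45, adjusted p = 0.9999). In it 0% of genes and 0 members were called by edgeR, with 650 of 17427 genes at an unadjusted p under 0.05.

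The ratio of Dyrk1a to Dyrk1b moved further than either gene. By RPKM it was 0.529, 0.619 and 0.699 in euploid females, 1.11, 1.36 and 1.58 in Ts65Dn females and 0.680, 1.15 and 1.40 in Ts65Dn;Brwd1+/- females, the last group without B136 starting at 0.934. In males the medians were 0.731, 1.23 and 1.36, and at E17.5 they were 1.02 and 1.79. The ratio follows from both chosen genes and is given without a test.

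Fbl, which encodes the nucleolar methyltransferase fibrillarin, ends 177 bases before Dyrk1b on the same strand, so its counts were taken beside those of Dyrk1b. Fbl was lower in Ts65Dn at E17.5 by 0.30 (SE 0.07, edgeR, adjusted p = 0.0789), from a median of 64.2 CPM in euploid to 50.8. In adults it was at 9.07 to 15.1 CPM and was not called by edgeR, while DESeq2 called it in Ts65Dn females (-0.22, adjusted p = 0.0626). The adult differences from euploid were -0.06 and -0.15 in Ts65Dn and Ts65Dn;Brwd1+/- males and -0.23 and -0.17 in females, with adjusted p-values of 0.902, 0.531, 0.107 and 0.366 in edgeR.

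Over the 47 adult libraries the genes most like Dyrk1b were Rfx5, Tpcn1 and Irak1, with r of 0.781, 0.772 and 0.765 and rho of 0.715, 0.733 and 0.718. After subtraction of the group means r was 0.43, 0.56 and 0.49, and over the 15 embryos it was 0.71, 0.33 and 0.32. Within the 27 libraries of raised dosage it was 0.0306 for Rfx5, 0.534 for Tpcn1 and 0.191 for Irak1, and within the 20 at the euploid level it was 0.634, 0.657 and 0.753. The likeness of Rfx5 and Irak1 to Dyrk1b was therefore seen in the second set and hardly in the first.

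Dcaf7, the adaptor, was lower in trisomic males. It was at 321, 341 and 373 CPM in euploid, at 268, 304 and 312 in Ts65Dn and at 276, 301 and 315 in Ts65Dn;Brwd1+/- males. All 7 and all 8 libraries of the trisomic groups lay below the lowest euploid library, the 3 libraries at euploid dosage included.

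The Ts65Dn males were lower by 0.20 (SE 0.04), on which the gene was chosen. The Ts65Dn;Brwd1+/- males were lower by 0.20 as well (SE 0.04, interval -0.28 to -0.12), to 0.869 of euploid (edgeR, adjusted p = 0.0229). The 8 euploid males are those on which Dcaf7 was chosen, so this test is not independent of the choice. Whether the Ts65Dn;Brwd1+/- libraries entered it too is not known. The call was lost in the fit of all 6 adult groups together, where the spread over both sexes was used (edgeR, adjusted p = 0.217). The lowest Ts65Dn male was B88, the library with Xist.

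In females Dcaf7 was at 246, 318 and 341 CPM in euploid, at 242, 277 and 319.7 in Ts65Dn and at 228, 298 and 319.6 in Ts65Dn;Brwd1+/- hippocampus. The groups overlapped, with 1 of 8 libraries of each trisomic group below the lowest euploid library. The lowest euploid female, at 246 CPM, was B125. The differences from euploid were -0.15 (SE 0.07) in Ts65Dn, a description, and -0.06 (interval -0.21 to 0.09, adjusted p = 0.813) in Ts65Dn;Brwd1+/- females. With single libraries left out, the Ts65Dn value ran from -0.19 to -0.12. The difference between Ts65Dn and euploid was 0.06 higher in females than in males (interval -0.12 to 0.23), again a description, so no difference between the sexes is read from it. At E17.5 Dcaf7 was at 364, 435 and 535 CPM in euploid and at 399.7, 479 and 517 in Ts65Dn embryos, a difference of -0.01 (SE 0.09) with overlapping ranges.

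The genes next to Dcaf7, namely Kcnh6, Taco1 and Map3k3, were not called in any comparison of genotypes. The genes most like Dcaf7 over the adult libraries were Mbtps2, Gpd2 and Jmjd4, with r of 0.784, 0.748 and 0.746 and rho of 0.758, 0.661 and 0.623. Within the 27 libraries of raised dosage r was 0.684, 0.810 and 0.863, and over the 15 embryos it was -0.15, -0.11 and 0.75.

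**Figure D4:**
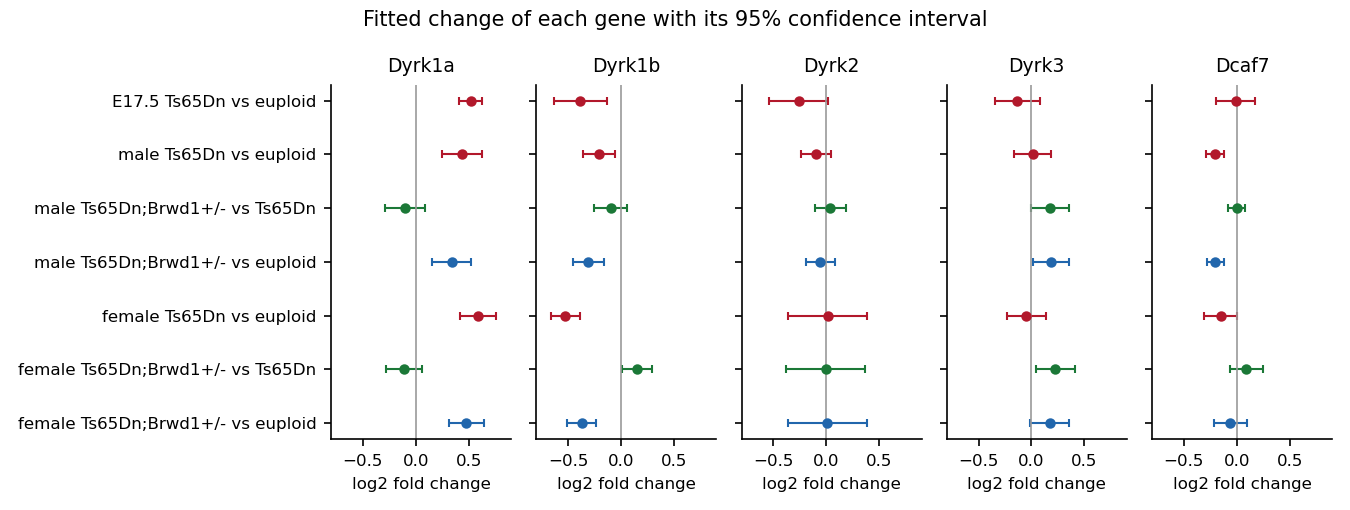
Log2 fold changes of Dyrk1a, Dyrk1b, Dyrk2, Dyrk3 and Dcaf7 with 95% confidence intervals in the comparisons of genotypes. Dyrk1a lies above 0 in every comparison with euploid, Dyrk1b below 0 in each of them, and in the comparisons of Ts65Dn;Brwd1+/- with Ts65Dn no member was called.

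Dyrk2, a kinase of the other class known as a scaffold of an E3 ligase with EDD, DDB1 and VPRBP, was not called in any comparison, apart from E17.5 and contrasts between sexes when RUVr factors were removed. At E17.5 it was at 46.3, 58.6 and 82.6 CPM in euploid and at 36.8, 53.3 and 58.6 in Ts65Dn embryos, a difference of -0.26 (interval -0.54 to 0.01, adjusted p = 0.433). The difference was -0.03 among embryos with the smaller title number and -0.44 among those with the larger.

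In adults Dyrk2 differed from euploid by -0.09 and -0.05 in Ts65Dn and Ts65Dn;Brwd1+/- males and by 0.02 and 0.01 in females, with an interval of -0.36 to 0.39 in Ts65Dn females. A pair of female libraries stood far below the others, euploid B125 at 10.8 and Ts65Dn;Brwd1+/- B176 at 13.01 CPM, where the other females lay at 23.9 to 35.1. Both also held the fewest hippocampal principal neuron markers of their groups (629 and 626 CPM) and the most thalamus and striatum markers (152 and 135.8 CPM). Choroid plexus markers summed to 5173 CPM in B125 and to 5735 in B176, the most of its group. Astrocyte markers were also the fewest of their groups in both (1208 and 1183 CPM), and neuron markers in B176 only. Male Ts65Dn B88 likewise held the fewest hippocampal and the most thalamus and striatum markers of its group, with Dyrk2 at 34.5 CPM. Female euploid B17 held the most choroid plexus markers of its group (6312 CPM), with Dyrk2 at 31.7 CPM. The part of these markers in the low Dyrk2 values was not tested.

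Dyrk3, the kinase that dissolves stress granules and other condensates, was not called either. In males it was at 12.3, 16.5 and 19.1 CPM in euploid, 13.4, 15.4 and 19.2 in Ts65Dn and 15.8, 17.9 and 22.3 in Ts65Dn;Brwd1+/- hippocampus, and in females at 12.9, 15.05 and 17.8, 11.8, 15.1 and 16.5, and 13.9, 16.8 and 20.6. All 8 Ts65Dn;Brwd1+/- males and 6 of 8 Ts65Dn;Brwd1+/- females lay above the Ts65Dn median of their sex. The difference between these genotypes was 0.18 in males (interval -0.0017 to 0.35, adjusted p = 0.665) and 0.22 in females (0.04 to 0.41, adjusted p = 0.9999). At E17.5 Dyrk3 differed by -0.13 (interval -0.34 to 0.08).

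**Figure D5:**
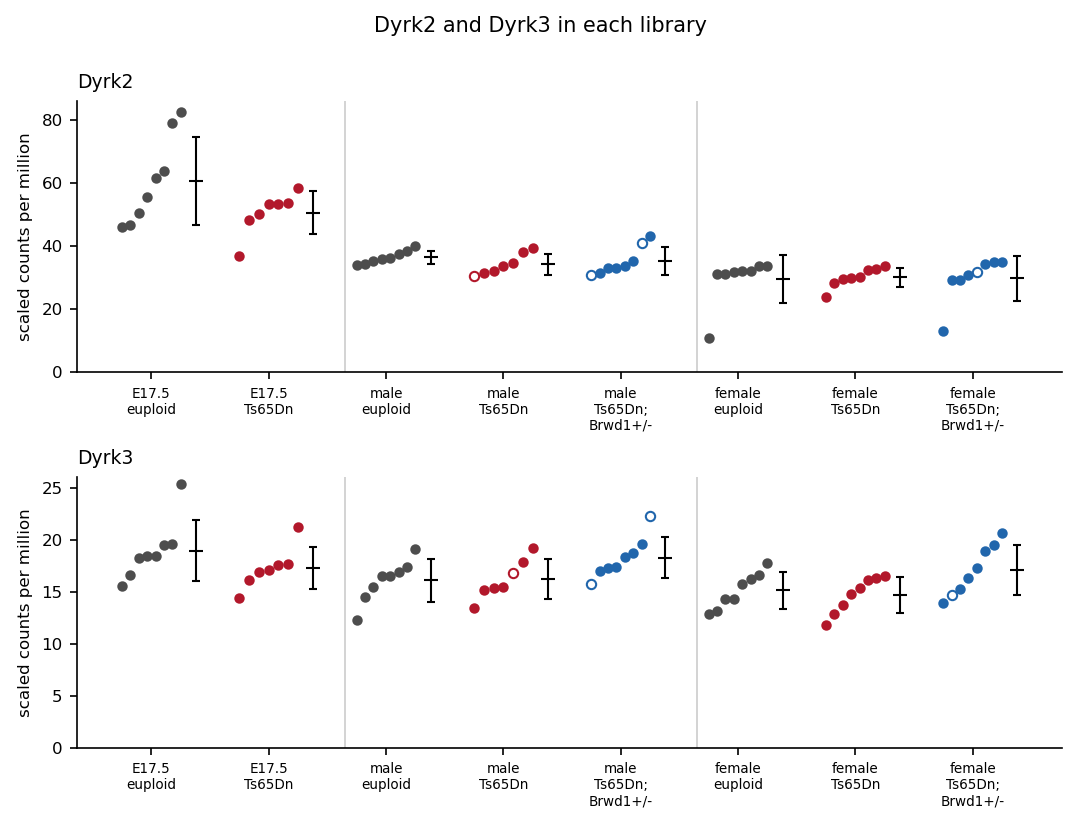
CPM of Dyrk2 and Dyrk3 in each library of the 8 groups, with the mean and SD as a black dash and bar and open circles for the 4 libraries at euploid dosage. Dyrk2 is highest in the embryos, with female euploid B125 at 10.8 and female Ts65Dn;Brwd1+/- B176 at 13.01 far below the other females, and the Dyrk3 groups overlap throughout.

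Dyrk4, best known from testis, was at the limit of detection, with 0 to 27 counts in a library and at most 0.401 CPM. It passed the filter on low counts only in females and in the fit of all adults, where its difference between Ts65Dn and euploid females was -0.17 (interval -0.97 to 0.63). A change in Dyrk4 was not detectable at this depth.

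Between the sexes, 2 of 6 members were called in euploid mice, where the share over all genes was 9.74%. They are Dcaf7 and Dyrk1b, which were chosen for lower values in Ts65Dn than in these euploid libraries, Dcaf7 in males and Dyrk1b in females. That choice favours the directions seen here, so the values are a description and nothing is read from the count. Dcaf7 was lower in euploid females than in euploid males by 0.17 (SE 0.06, adjusted p = 0.0793) and Dyrk1b was higher by 0.19 (SE 0.07, adjusted p = 0.0997). Both calls lie close to the threshold: without female euploid B125 Dcaf7 differed by -0.12 (adjusted p = 0.181), and without the libraries at euploid dosage and the 2 whose Xist level goes against the label Dyrk1b differed by 0.17 (adjusted p = 0.189). In Ts65Dn and in Ts65Dn;Brwd1+/- mice 0 members were called between the sexes, where 0.0287% and 0.0689% of genes were called. At an unadjusted p under 0.05 there were 773 and 1267 of 17427 genes. By median CPM, euploid females were the adult group with the highest Dyrk1b and euploid males the one with the highest Dcaf7. The difference between sexes in euploid mice therefore stands beside the differences from euploid given above for each sex.

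Outside the family, 101 genes of the pathways around these proteins were examined, from lists of related kinases, DCAF7 partners, DREAM subunits, calcineurin and NFAT genes, substrates and regulators of Dyrk1a, written with earlier results known. The genes called in every comparison of a trisomic group with euploid were 3 triplicated ones, Rcan1 (a calcineurin inhibitor phosphorylated by DYRK1A), App (the amyloid precursor protein) and Synj1 (a lipid phosphatase of synaptic vesicle endocytosis). Their log2 fold changes at E17.5 were 0.69, 0.86 and 0.63, and in Ts65Dn females 0.63, 0.70 and 0.79. In males they were 0.55, 0.53 and 0.47 in Ts65Dn.

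Of the 98 pathway genes that are not triplicated, 1 was called at E17.5, 0 in Ts65Dn males, 1 in Ts65Dn;Brwd1+/- males, 3 in Ts65Dn females and 0 in Ts65Dn;Brwd1+/- females. These are 1.02%, 0%, 1.02%, 3.06% and 0%, where the shares over all genes were 1.35%, 0.795%, 0.576%, 3.17% and 0.729%, so that apart from the 1 gene in Ts65Dn;Brwd1+/- males the list stayed below the share of all genes. Jun, an immediate early factor that DYRK2 phosphorylates, was higher at E17.5 by 0.26 (SE 0.05, adjusted p = 0.0172). Hipk3, a kinase of the related HIPK family, was lower in Ts65Dn;Brwd1+/- males by 0.20 (SE 0.04, adjusted p = 0.0374). In Ts65Dn females the splicing kinases Clk1 and Clk4 and the splicing factor Srsf2 were lower by 0.28, 0.26 and 0.27, with adjusted p-values of 0.0263, 0.0230 and 0.0725.

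None of the 22 DCAF7 partners, the 11 DREAM subunits or the 5 regulators of Dyrk1a was called in a comparison of genotypes. The median difference of the DCAF7 partners lay between -0.04 and 0.01, beside -0.02 to 0.004 over all genes. For the DREAM subunits at E17.5, where 9 of 11 were below 0, it was -0.07 beside -0.01. In Ts65Dn females, where 10 of 11 were below 0, it was -0.05 beside -0.02, and in the other comparisons with euploid -0.03 to 0.01. The 5 regulators had a median of -0.10 in Ts65Dn females and in Ts65Dn;Brwd1+/- males, with all 5 below 0 in both. Their medians were -0.01 at E17.5, 0.002 in Ts65Dn males and -0.02 in Ts65Dn;Brwd1+/- females. The 27 substrates of DYRK1A and DYRK1B had a median of -0.06 in Ts65Dn females, with 3 higher (the triplicated ones), 1 lower (Srsf2) and the rest not called.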

How the data were processed

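The authors deposited raw read counts per gene, without normalization, in one table for the embryos and one for the adults. Per the labels, libraries were made with the Illumina TruSeq RNA kit V2, and the submitters' processing notes name HISAT2 2.1.0, featureCounts 2.0.1 and the builds mm10 and mm9, while the study's methods give mm10. Rows were named through RefSeq and GENCODE by Entrez identifier, which matched 25293 of 27179.

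The members and gene lists were chosen with earlier results of these data known. Counts were tested in R 4.3.3 with the quasi-likelihood test of edgeR 4.0.16 (TMM, filterByExpr with a minimum count of 10, robust), with Benjamini-Hochberg adjustment over all tested genes and calls at an adjusted p under 0.1. Males of the 3 genotypes entered one model and females another, the embryos had their own, and contrasts between sexes used all 6 adult groups. CPM use TMM-scaled library sizes, with a prior count of 0.5 for log2 values. The triplicated segments began at base 84718281 of chromosome 16 and ended at base 8986648 of chromosome 17, bounds taken from general knowledge of the model (133 genes tested in embryos, 137 over all adults).

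Named genes were the 6 members, pathway genes called (up to 3 in each direction per list), and the 3 genes of highest Pearson r with Dyrk1a, Dyrk1b and Dcaf7. Beyond that rule, Brwd1, the neighbours of Dyrk1b and Dcaf7 and the sex-linked genes were named. Alternatives were DESeq2 1.42.0 with and without 1 to 3 RUVr factors, upper-quartile scaling, no filter, a threshold of 0.05, other samples in the fit, covariates, blocks for the embryos, and leaving out libraries. The test was checked on simulated counts. No library repeated another of its group (chi-square per degree of freedom at least 7.64).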

Additional observations from a re-analysis of the deposited data

Results flagged for a closer look

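In 7 of the 48 combinations of a member and a group of 7 or 8 libraries, the highest or the lowest library stood apart from the others by Dixon's criterion, which chance meets in about 1 of 20 groups. Values are log2 CPM.

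Dyrk2 gave 3 of the 7. It was 5.20 in E17.5 Ts65Dn embryo 6, where the other 6 lay at 5.59 to 5.87, and that embryo also held the highest hindbrain and spinal cord markers. It was 3.43 in female euploid B125, where the others lay at 4.96 to 5.08, and 3.70 in female Ts65Dn;Brwd1+/- B176, where the others lay at 4.87 to 5.13.

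Dcaf7 gave 2 of the 7, at 8.06 in male Ts65Dn B88 (others 8.20 to 8.29), the library with Xist RNA, and at 7.83 in female Ts65Dn;Brwd1+/- B176 (others 8.12 to 8.32). B88, B125 and B176 held the fewest hippocampal principal neuron markers of their groups and the most thalamus and striatum markers. B88 and B176 also held the fewest neuron markers and the most choroid plexus markers of their groups. Choroid plexus markers summed to 5320 CPM in B88 (others 42.3 to 3027) and 5735 in B176 (others 61.5 to 4895). In B125 they summed to 5173 (others 48.0 to 6312). The part of these markers in the low values was not tested.

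Dyrk3 was 4.67 in E17.5 euploid embryo 4, above the 3.96 to 4.29 of the others, and Dyrk4 was -6.84 in male euploid B110, a library with 0 Dyrk4 counts, where the others lay at -3.09 to -1.55.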

How the results depend on the processing

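Of 1641 recomputed member changes, 1593 stayed on their side of the threshold, 18 lost a call and 30 gained one. No called change turned its sign, and 61 that were not called, none over 0.169 in size, did. The number of members called moved as follows. At E17.5 it was 1, and 2 with DESeq2 and with 1 RUVr factor and 3 with 2 or 3 factors. Ts65Dn vs. euploid males gave 2, and 1 with all 6 adult groups in the fit and 3 with 2 or 3 RUVr factors (with Dyrk1b). Ts65Dn vs. euploid females gave 2, and 3 with 1 to 3 factors (with Dcaf7). Ts65Dn;Brwd1+/- vs. euploid males gave 2, and 1 at an adjusted p under 0.05, 1 to 3 with single libraries left out (3 without B145, B138 or T35), and 3 with DESeq2, with 1 to 3 factors and without the libraries at euploid dosage (with Dyrk1a). The sex by genotype contrast of Ts65Dn vs. euploid gave 0, and 1 with 1 to 3 RUVr factors, as did females vs. males of Ts65Dn;Brwd1+/-. Euploid females vs. males gave 2, and 0 at 0.05 and without the filter, 1 without B125 and without the libraries at euploid dosage and of discordant sex genes, and 3 with 1 to 3 factors (with Dyrk2). Dyrk1a relative to the other triplicated genes in Ts65Dn;Brwd1+/- males was -0.12 and passed 0.05 with the chromosome 16 segment alone (exact permutation test, adjusted p = 0.0370), and was -0.13 with the mean in place of the median (exact permutation test, adjusted p = 0.203). With the mean, the E17.5 value was -0.11 in place of -0.06 (exact permutation test, adjusted p = 0.213). The causes were not tested. Apart from B125, single libraries were not left out in the contrasts between sexes.

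Over all genes tested, the share called rose most with 3 RUVr factors, from 1.35% to 24.6% at E17.5, from 0.795%, 0% and 0.576% to 7.08%, 5.92% and 7.81% in males (Ts65Dn vs. euploid, Ts65Dn;Brwd1+/- vs. Ts65Dn and vs. euploid), and from 3.17%, 0% and 0.729% to 25.5%, 5.13% and 20.7% in females. Between sexes it rose from 9.74% to 28.0% in euploid mice. At an adjusted p under 0.05 it was 0.701% at E17.5, 0.493% and 0.22% in Ts65Dn and Ts65Dn;Brwd1+/- males and 1.54% in Ts65Dn females vs. euploid.

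The replicate numbers of the embryo titles were checked for pairing. Deviations of same-numbered embryos correlated at -0.13 to 0.23, over 0.1 in 3 of 7 pairs, and 1 of 7 correlated best with its own number, so the embryos share only a number. With the replicate block 1 member was called, Dyrk1a at 0.53. For the adults, no paired analysis was possible because the animal identifiers differ between groups.

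Depth limits Dyrk4, at 0 to 27 counts in a library, more than any other member.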
